A study of Mus musculus with 9 samples.

Results

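The 10 genes described here belong to the early mesoderm, the germ layer that forms muscle, skeleton, heart and blood vessels. Their RNA was followed in 3 related mouse stem cell types. They are the T-box factors Tbx20, Tbx6 and Tbx4, the basic helix-loop-helix (bHLH) factors Twist1, Tcf15 and Hand2, the forkhead factors Foxc1 and Foxf1, the homeobox factor Meox1, and Kdr, a receptor for vascular endothelial growth factor (VEGF). They were taken by symbol from the gene count table, and each of the 10 matched 1 of its 54532 genes. The study measured poly-A selected RNA in 9 libraries, 3 of each cell type, all of the strain Sv129 x GOF/GFP F1. AFSC came from blastocysts and were grown in Activin A and bFGF at passage 15 to 20; the labels liken them to epiblast stem cells (EpiSCs). Both of the other types were derived from AFSC, which were passaged more than 5 times in a changed medium, so all 3 share the derivation, the basic medium with N2 and B27, and Activin A. ABSC, likened by the labels to trophoblast stem cells (TSCs), were grown in Activin A and BMP4, at passage 25 to 30. ALSC, at passage 20 to 25, are taken to have received Activin A with LIF, the leukaemia inhibitory factor, a recipe that the protocol gives under the name of the AB medium. Cell type, medium and passage cannot be told apart, since the passage ranges meet only at their ends, and an RNA kit named for ALSC may also differ with the cell type. No label says that the 3 libraries of a group came from separate cultures, so p-values measure the spread between these libraries.

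Mesoderm arises in the gastrulating embryo when epiblast cells leave the primitive streak under Nodal, WNT, FGF and BMP signals. Its position along the streak sets its fate: paraxial mesoderm forms somites (Tbx6, Tcf15, Meox1, Foxc1), lateral plate mesoderm forms heart, limb and gut wall tissue (Tbx20, Tbx4, Hand2, Foxf1), and cells with Kdr include the precursors of blood and vessels. Twist1 acts in mesenchymal cells and in the transition from epithelium to mesenchyme. Pluripotent epiblast cells hold most of these genes at low levels.

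All 10 genes were rare in these cells. The libraries held 18978651 to 21578737 counts in genes, and levels are given as CPM, the read count relative to the TMM-scaled library total, or per length as RPKM, the CPM divided by the gene length of the deposited table in kilobases. A count of 3 in a library, the limit that a count of 0 allows, corresponded to 0.138 to 0.157 CPM; this and the intervals on counts cover counting error only. Pou5f1, the defining gene of pluripotent cells, stood at 1074 ± 42.5 CPM in AFSC, 935 ± 30.6 CPM in ALSC and 1226 ± 42.4 CPM in ABSC (SD, n = 3). By contrast the highest of the 10 genes, Tcf15, averaged 5.07 CPM over the 9 libraries, which is above 33.8% of the genes tested. A filter on low counts kept 7 of the 10 genes, namely Tbx20, Tbx6, Tbx4, Twist1, Tcf15, Foxc1 and Kdr. It asked for about 0.492 CPM in at least 3 libraries, and Twist1 passed it through its 3 AFSC libraries, with ABSC 3 just at the limit (10 counts) and its other libraries below, so that a difference in Twist1 was part of its passing. Foxc1 was above the limit in all 3 ABSC libraries, but in only 1 of AFSC and 1 of ALSC. Foxf1, Meox1 and Hand2 did not reach that level in any library. In bulk RNA, fewer cells of a type and less RNA per cell cannot be told apart.

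The genes that changed were Tbx20, Tbx4 and Twist1, and the bases upstream of their start sites are shown here because the next paragraphs turn on them. The sequences are from RefSeq (GRCm38.p6), 250 bases ending at the base before the RefSeq start, 5′ to 3′ on the strand of the gene. Of the 10 genes 7 matched an entry; Foxf1, Meox1 and Tcf15 had none. Capitals mark matches on either strand to the E-box CANNTG, bound by bHLH factors, the TATA box TATAAA, the SMAD box CAGAC and the GC box GGGCGG. No marked match overlaps another.
Tbx20, chr9:24774304-24774553, minus strand: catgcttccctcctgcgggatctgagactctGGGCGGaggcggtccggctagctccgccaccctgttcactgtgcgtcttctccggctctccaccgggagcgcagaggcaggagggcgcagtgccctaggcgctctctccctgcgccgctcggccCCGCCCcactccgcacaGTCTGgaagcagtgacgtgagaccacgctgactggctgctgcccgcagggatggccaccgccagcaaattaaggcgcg
Tbx4, chr11:85896515-85896764, plus strand: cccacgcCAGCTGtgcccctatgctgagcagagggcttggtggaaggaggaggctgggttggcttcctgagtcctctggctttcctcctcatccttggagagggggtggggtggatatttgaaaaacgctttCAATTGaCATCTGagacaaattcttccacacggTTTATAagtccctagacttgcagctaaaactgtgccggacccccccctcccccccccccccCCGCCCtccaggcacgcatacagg
Twist1, chr12:33957421-33957670, plus strand: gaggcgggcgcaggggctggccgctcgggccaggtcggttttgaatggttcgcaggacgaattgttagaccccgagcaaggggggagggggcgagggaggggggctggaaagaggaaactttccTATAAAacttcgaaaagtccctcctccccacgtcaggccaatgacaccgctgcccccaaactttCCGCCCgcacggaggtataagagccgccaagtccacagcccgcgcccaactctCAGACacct

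The windows differed in their letters. The Tbx20 window was 68.8% G and C, with 2 GC boxes and 1 SMAD box, 78 bases before the start, against a median of 52.4% over all 32851 RefSeq windows. The Tbx4 window (58.4%) held 3 E-boxes, 1 TATA box and 1 GC box. Its RefSeq start lies 10343 bases into the gene as the count table draws it, so the table draws the gene from a more upstream start than the one shown. The Twist1 window (62.4%) held 1 TATA box, 126 bases before the start, 1 GC box and 1 SMAD box, 9 bases before the start. Among all windows of this length 66.2% held an E-box, 12.4% a TATA box, 42.2% a SMAD box and 32.7% a GC box. The other motifs searched, the GC-rich SMAD motif GGCGCC (9.59% of all windows), the STAT motif TTCNNNGAA (7.02%) and the T-box motif GGTGTGA (3.33%), were read on both strands and had no match in these 3 windows. These matches describe the letters and were not tested against the RNA.

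Tbx20, a T-box factor needed for heart development, was high in ABSC and low in the other cell types. The gene (ENSMUSG00000031965) spans chromosome 9, 24718138 to 24774303, on the minus strand, as the table gives it and as GRCm38 has it. ABSC held 5.50, 8.05 and 7.79 CPM in libraries 1 to 3, from 112, 154 and 154 counts. AFSC held 1.39, 1.28 and 1.22 CPM, from 26 to 27 counts, and ALSC 0.827, 0.679 and 0.611 CPM, from 12 to 18 counts. No library of one cell type overlapped those of another, and the order was ABSC, AFSC, ALSC. Against AFSC, Tbx20 rose 5.47-fold in ABSC (log2 fold change 2.45, SE 0.22, edgeR adjusted p = 0.000143). Against ALSC the rise was 9.97-fold (3.32, SE 0.24, edgeR adjusted p = 2.73e-05). ALSC against AFSC gave -0.87 (95% interval -1.44 to -0.29, edgeR adjusted p = 0.0754), and the replicate block, which compares libraries of the same number, gave -0.86 and an edgeR adjusted p of 0.0480. Within single library numbers the ratio of ABSC to AFSC was 3.95, 6.31 and 6.38.

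Tbx4, a T-box factor of the hindlimb, lung and allantois, had a different order, with AFSC highest and ALSC lowest. The gene (ENSMUSG00000000094) spans chromosome 11, 85886422 to 85916097, on the plus strand. It stood at 2.27, 2.69 and 1.93 CPM in AFSC, at 1.42, 1.10 and 0.911 CPM in ABSC, and at 0.505, 0.261 and 0.204 CPM in ALSC, the last from 11, 5 and 4 counts. The libraries of the 3 cell types did not overlap. In ALSC, Tbx4 fell 6.89-fold against AFSC (-2.78, SE 0.36, edgeR adjusted p = 0.00225). ABSC against ALSC gave a rise of 3.45-fold (1.79, SE 0.38, edgeR adjusted p = 0.0146), a call that was lost without ALSC 2 (edgeR adjusted p = 0.0534) and without ALSC 3 (edgeR adjusted p = 0.0521). ABSC against AFSC stood at -0.999 (95% interval -1.69 to -0.31, edgeR adjusted p = 0.0858), and was called with the replicate block (-1.01, edgeR adjusted p = 0.0181).

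Tbx6, which directs streak cells to paraxial mesoderm in place of neural tissue, passed in no comparison (edgeR adjusted p = 0.868 or more). The gene (ENSMUSG00000030699) spans chromosome 7, 126781483 to 126785560, on the plus strand. Its levels were 1.03, 0.992 and 0.564 CPM in AFSC, 1.38, 0.679 and 0.764 CPM in ALSC, and 1.28, 0.523 and 0.759 CPM in ABSC. The ranges of the 3 groups overlapped, and each value rested on 10 to 30 counts. The log2 difference of ABSC from AFSC was -0.01 with a 95% interval from -0.97 to 0.96 (edgeR adjusted p = 0.997), an interval that reaches 1.94-fold higher.

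**Figure D1:**
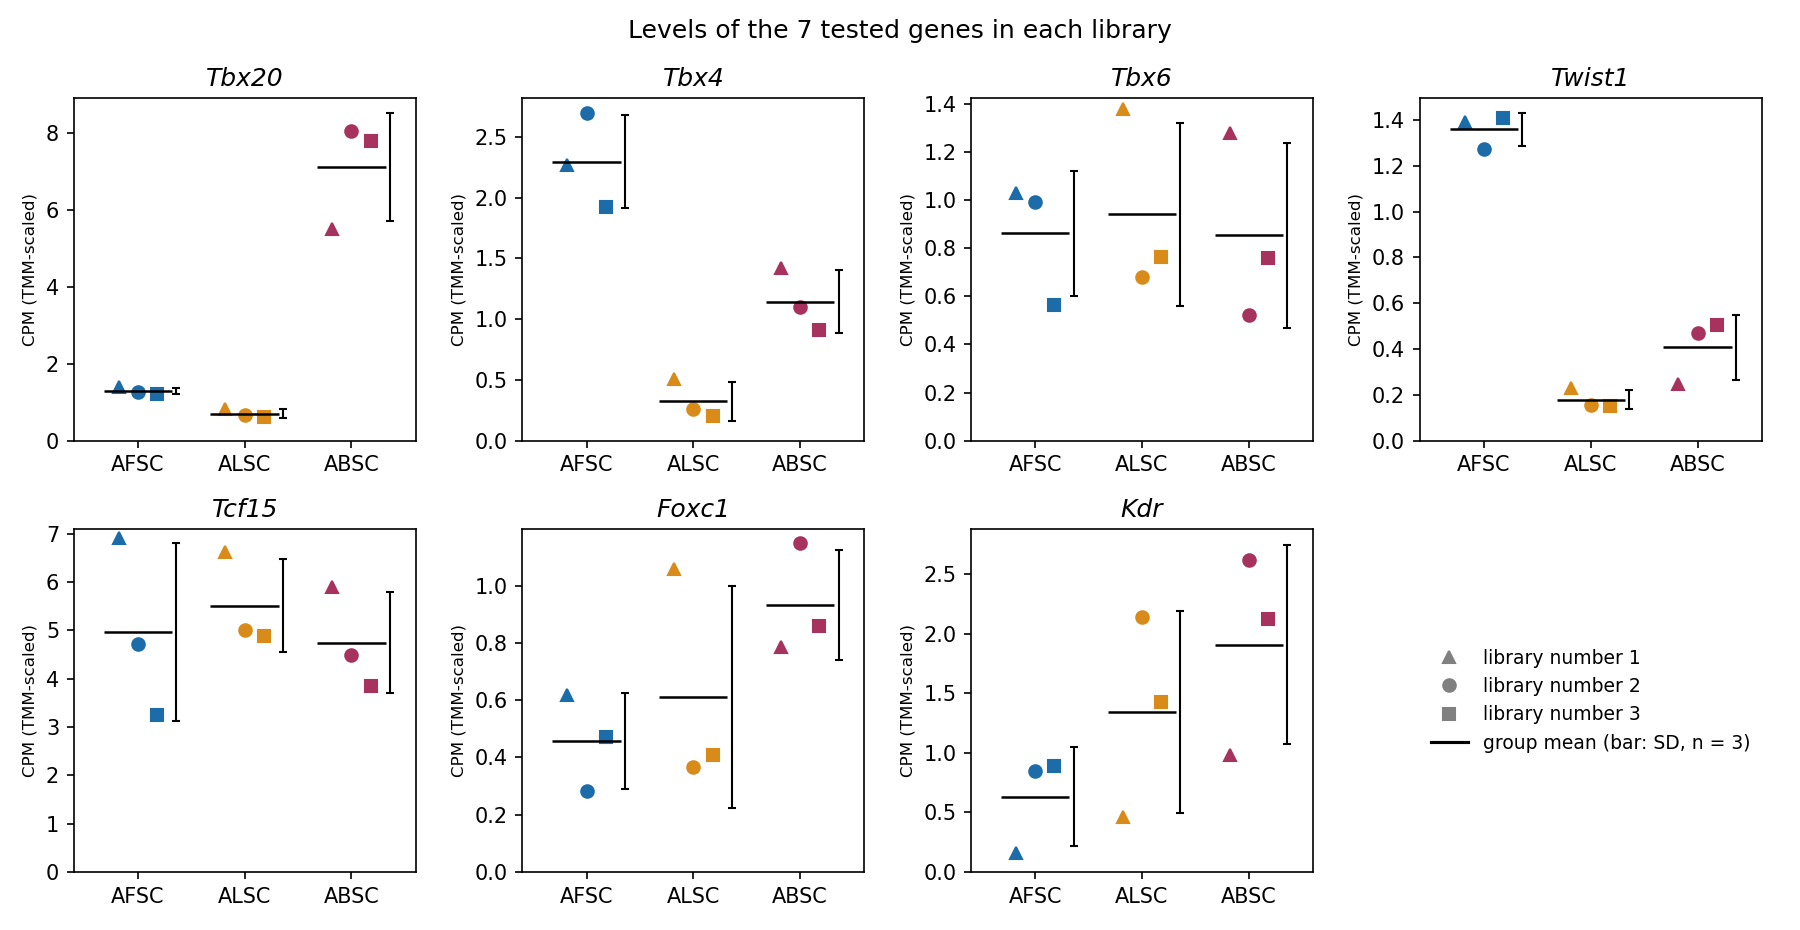
Levels of the 7 genes tested, in TMM-scaled CPM on a linear axis from 0, for each library (marker shape gives the library number, colour the cell type); the line is the group mean and the bar at its right is the SD of 3 libraries. Tbx20 is highest in ABSC (5.50 to 8.05 CPM), Tbx4 and Twist1 are highest in AFSC, and Kdr is lowest in library 1 of each cell type.

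Among the bHLH factors Twist1 changed, Tcf15 did not pass the test and Hand2 was at the floor. Twist1 (ENSMUSG00000035799; chromosome 12, 33957671 to 33959829, plus strand) stood at 1.39, 1.28 and 1.41 CPM in AFSC. ABSC held 0.246, 0.471 and 0.506 CPM, from 5, 9 and 10 counts, and ALSC 0.230, 0.157 and 0.153 CPM, from 5, 3 and 3 counts. Every AFSC library lay above every other library, and the ABSC libraries lay above those of ALSC by a narrow margin, 0.246 against 0.230 CPM at the nearest. Twist1 fell 3.31-fold in ABSC against AFSC (-1.73, SE 0.33, edgeR adjusted p = 0.0103) and 7.28-fold in ALSC (-2.86, SE 0.37, edgeR adjusted p = 0.00225). The ALSC fold rests on 3 to 5 counts per library, and 3 is the limit that a count of 0 allows. The ABSC call was lost without AFSC 3 (-1.70, edgeR adjusted p = 0.0510). ABSC and ALSC differed by 1.14 (95% interval 0.19 to 2.09), which did not pass (edgeR adjusted p = 0.123).

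Tcf15, a factor of somite epithelium that is also found in epiblast cells, was the most abundant of the 10 genes per length. The gene (ENSMUSG00000068079) spans chromosome 2, 152143561 to 152149097, on the plus strand. It reached 5.06 ± 1.88 RPKM in AFSC, 5.62 ± 0.983 RPKM in ALSC and 4.84 ± 1.07 RPKM in ABSC (SD, n = 3). The highest of the other 9 genes was Twist1 in AFSC, at 0.835 ± 0.0446 RPKM. In CPM, the Tcf15 libraries were at 6.91, 4.72 and 3.24 in AFSC, 6.62, 5.01 and 4.89 in ALSC, and 5.89, 4.50 and 3.85 in ABSC. These ranges overlapped, and library 1 was the highest in each. The differences were -0.06 for ABSC against AFSC (95% interval -0.69 to 0.57), 0.16 for ALSC against AFSC (-0.47 to 0.78) and -0.22 for ABSC against ALSC (-0.84 to 0.41), with edgeR adjusted p of 0.952, 0.807 and 0.686.

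Hand2, a factor of the second heart field, limb and branchial arches, had 1 count in the 9 libraries, in ABSC 1. Its 0 counts in AFSC and in ALSC allow up to 0.0485 and 0.0495 CPM over each group. The gene (ENSMUSG00000038193) spans chromosome 8, 57320983 to 57324633. The antisense gene AV026068, which overlaps it, had at most 1 count in a library. Its relative Hand1 was different: it stood at 213 ± 28.7 CPM in ABSC, 2.08 ± 0.388 CPM in ALSC and 0.240 ± 0.119 CPM in AFSC.

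Of the forkhead and homeobox genes, Foxc1 was low but above the floor, and Foxf1 and Meox1 were at it. Foxc1, a factor of somites and of vessel development (ENSMUSG00000050295; chromosome 13, 31806633 to 31812476, plus strand), held 0.786, 1.15 and 0.860 CPM in ABSC, from 16 to 22 counts. It held 0.618, 0.283 and 0.470 CPM in AFSC and 1.06, 0.365 and 0.408 CPM in ALSC. The ABSC libraries lay above those of AFSC but overlapped ALSC, where library 1 was the highest. No comparison passed: ABSC against AFSC gave 1.02 (95% interval -0.02 to 2.06, edgeR adjusted p = 0.256), ALSC against AFSC 0.44 (edgeR adjusted p = 0.670) and ABSC against ALSC 0.58 (edgeR adjusted p = 0.460). With all 3 libraries numbered 1 left out, a setting chosen after seeing the data, ABSC was above AFSC (1.40, edgeR adjusted p = 0.0262) and above ALSC (1.37, edgeR adjusted p = 0.0297). In that setting every remaining AFSC and ALSC library lay below the filter limit of about 0.492 CPM. Foxc1 was then tested only through ABSC, where it was high, so a difference was part of its passing. Foxf1, a factor of the gut and lung mesenchyme (ENSMUSG00000042812; chromosome 8, 121084386 to 121088144), had 2 counts in all of AFSC, 3 in ALSC and 1 in ABSC. Meox1, a somite factor (ENSMUSG00000001493; chromosome 11, 101877510 to 101894374), had 5, 2 and 1. Exact Poisson 95% intervals on these sums reach 0.145 CPM for Foxf1 and 0.189 CPM for Meox1 at most, and no difference was detectable at this depth.

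Kdr, also called Flk1 or VEGFR2, marks mesoderm that can form blood and endothelium. The gene (ENSMUSG00000062960) spans chromosome 5, 75932827 to 75978458, on the minus strand. Its libraries were at 0.155, 0.850 and 0.893 CPM in AFSC, 0.459, 2.14 and 1.43 CPM in ALSC, and 0.982, 2.61 and 2.13 CPM in ABSC. Library 1 was the lowest of each cell type, with 3, 10 and 20 counts, and within each number the order was AFSC, ALSC, ABSC. Every ABSC library lay above every AFSC library, while ALSC overlapped both. The difference of ABSC from AFSC was 1.56 (95% interval 0.13 to 3.00, edgeR adjusted p = 0.203) and that of ALSC from AFSC 1.05 (-0.42 to 2.52, edgeR adjusted p = 0.410). With the replicate block both were called, at 1.64 (SE 0.32, edgeR adjusted p = 0.00196) and 1.06 (SE 0.33, edgeR adjusted p = 0.0332). Without the 3 libraries numbered 1 they were 1.44 (edgeR adjusted p = 0.000918) and 1.02 (edgeR adjusted p = 0.0231). The ratio of ABSC to AFSC was 6.35 in library 1, where AFSC rests on 3 counts, 3.07 in library 2 and 2.38 in library 3. ABSC against ALSC passed in neither fit (0.51, edgeR adjusted p = 0.645; 0.57 with the block, edgeR adjusted p = 0.158).

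**Figure D2:**
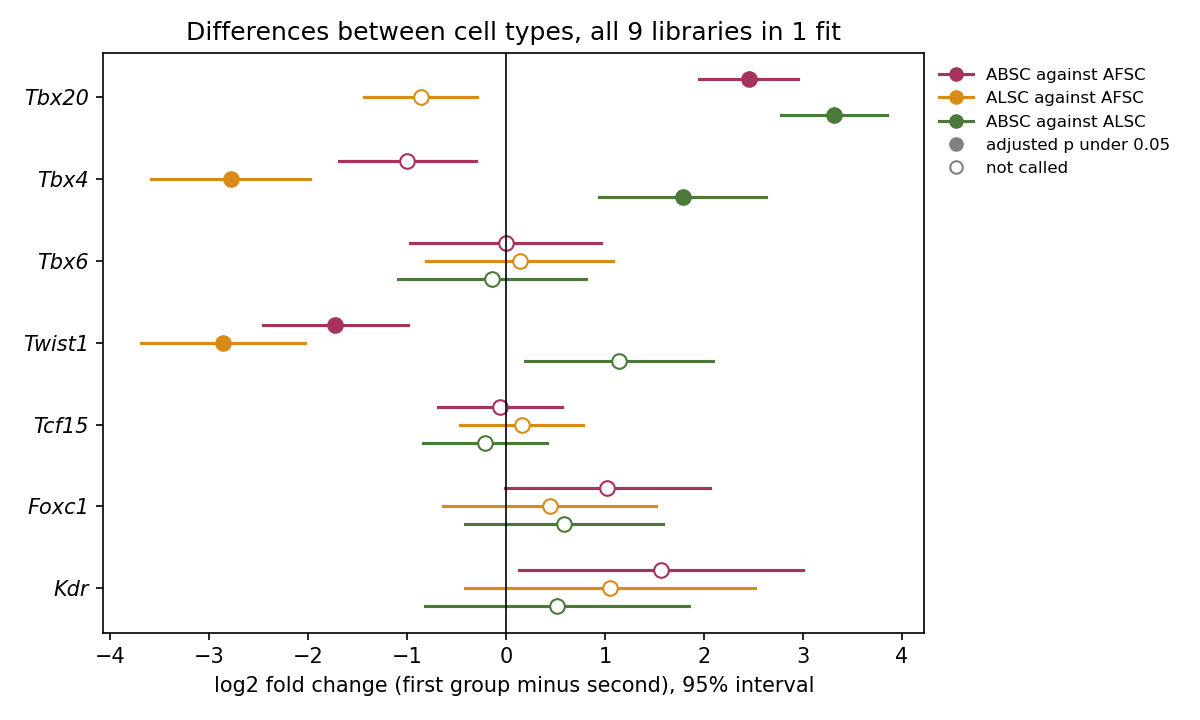
Log2 fold changes of the 7 genes tested (dots) with their 95% intervals (lines) in the 3 comparisons, first group minus second; filled dots passed at an adjusted p under 0.05 over all genes. Tbx20 lies right of 0 in both comparisons of ABSC, Tbx4 and Twist1 lie left of 0 in ALSC against AFSC at -2.78 and -2.86, and the intervals of Tbx6 and Tcf15 cross 0 throughout.

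Of the 10 genes, 7 of them tested, 2 passed in each pair of cell types, and the pair of genes differed each time. In ABSC against AFSC, Tbx20 rose and Twist1 fell, beside 7.98% of all 16178 genes tested, of which those higher in ABSC were 3.98% of all genes and those lower 4.0%. In ALSC against AFSC, Tbx4 and Twist1 fell, beside 7.04% of all genes (3.54% higher and 3.50% lower). In ABSC against ALSC, Tbx20 and Tbx4 rose, beside 11.0% (5.41% higher and 5.56% lower). With the replicate block the counts were 4, 4 and 2 of the 7 tested, beside 19.4%, 22.2% and 28.5% of all genes, the added calls being Tbx4 and Kdr in the first comparison and Tbx20 and Kdr in the second. Groups that did not overlap were seen for 5, 3 and 3 of the 7 tested, beside 27.4%, 28.5% and 28.9% of all genes. When the 3 groups were tested jointly, the genes called were Tbx20 (edgeR adjusted p = 2.60e-05), Twist1 (0.00146) and Tbx4 (0.00205), beside 14.8% of all genes. With the block Kdr was added (edgeR adjusted p = 0.00336), beside 37.0%. ABSC and ALSC were compared with the same AFSC libraries, so these counts are not independent of each other. Twist1 passed the low-count filter through its AFSC libraries, where it was high, so a difference was part of its passing in each of its calls here.

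Levels within a cell type also varied with the library number, for these genes and over the whole table. The labels number libraries 1 to 3 without saying what a number stands for. In the fit with the replicate block, libraries numbered 1 stood below numbers 2 and 3 for Kdr (log2 difference -1.69, SE 0.30, edgeR adjusted p = 0.000624) and above them for Tcf15 (0.58, SE 0.14, edgeR adjusted p = 0.00574) and Tbx6 (0.78, SE 0.29, edgeR adjusted p = 0.0490). These are 3 of the 7 genes tested, beside 34.7% of all genes, so the shift was not particular to them. For Tbx6, AFSC 1 and AFSC 2 were close, at 1.03 and 0.992 CPM. Tbx20 (-0.17, edgeR adjusted p = 0.576), Twist1 (-0.12, edgeR adjusted p = 0.828), Tbx4 (0.37, edgeR adjusted p = 0.315) and Foxc1 (0.55, edgeR adjusted p = 0.271) did not pass. For Kdr the 3 libraries numbered 1 deviated from their group means by -1.29, -1.15 and -0.79, and for Tcf15 by 0.54, 0.27 and 0.33, in AFSC, ALSC and ABSC.

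**Figure D3:**
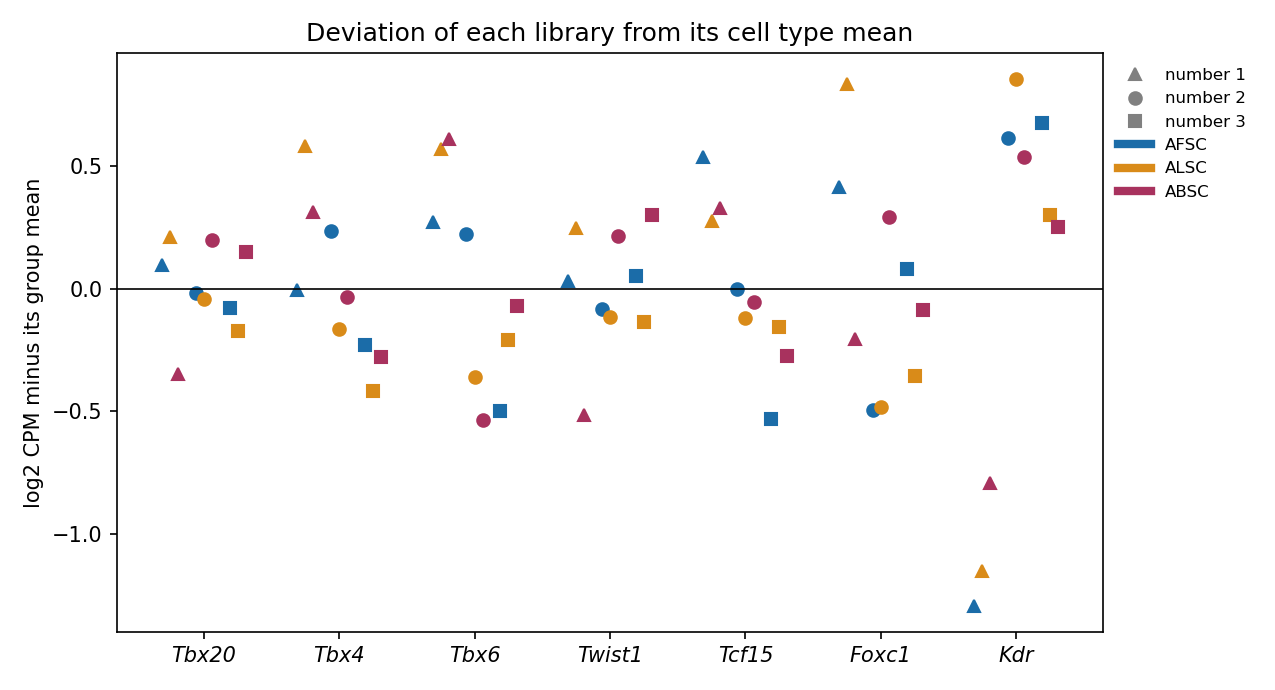
Deviation of each library's log2 CPM from the mean of its cell type for the 7 genes tested (marker shape gives the library number, colour the cell type). The triangles of library 1 lie below 0 for Kdr (-1.29 to -0.79) and above 0 for Tcf15 (0.27 to 0.54) in all 3 cell types.

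The factors that act before and beside these genes gave a wider view of the mesodermal state. The list counts below stand beside edgeR calls for 7.98%, 7.04% and 11.0% of all genes. These are for ABSC against AFSC, ALSC against AFSC and ABSC against ALSC, with 19.4%, 22.2% and 28.5% under the replicate block. A list count near these shares, such as 1 of 10 VEGF genes, is not a result about the list. Of 20 regulators of the streak and of nascent mesoderm 15 were tested; 2 rose and 4 fell in ABSC against AFSC, 3 rose and 1 fell in ALSC against AFSC, and 4 were higher and 5 lower in ABSC than in ALSC. T, the T-box factor of the streak, rose in ALSC (136 ± 6.21 against 70.9 ± 4.36 CPM; 0.94, edgeR adjusted p = 0.0375; 0.0708 with the replicate block). In ABSC, T stood at 126 ± 46.2 CPM and was not called against AFSC. The other genes called in ALSC against AFSC were Fgf8 (1.40), Gsc (1.02) and Fgf4 (-0.66). In ABSC against AFSC the largest called changes were Foxa2 (-5.64), Evx1 (5.41, edgeR adjusted p = 3.57e-05), Cdx2 (5.04) and Lhx1 (-4.84). Evx1, which overlaps Evx1os, rose from 1.14 ± 0.200 to 49.1 ± 20.9 CPM. Mesp1, which marks the first mesoderm to leave the streak, had 0 to 11 counts in a library, and Msgn1, the partner of Tbx6 in presomitic mesoderm, had 0 counts in all. Of 20 paraxial mesoderm genes 8 were tested. In ABSC against AFSC 1 of them fell, the Notch ligand Dll1 (-1.63, edgeR adjusted p = 0.0208), and in ALSC the Notch pathway gene Dll3 rose (1.03, edgeR adjusted p = 0.0278). Against ALSC 4 of the 8 were lower in ABSC and 0 higher, with Ripply1 at -2.02 and the WNT agonist Rspo3 at -1.30 (median -0.89, against -0.01 over all genes). Dll1 and Ripply1 were low in ABSC, at 0.391 ± 0.118 and 0.306 ± 0.154 CPM. With the block the paraxial counts were 3 falls in ABSC against AFSC, and 2 rises and 1 fall in ALSC.

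Cardiac and lateral plate genes, the setting in which Tbx20 and Hand2 are best known, gave no edgeR call in ABSC against AFSC. Of 22 genes 10 were tested; 3 of them had an unadjusted p under 0.05, DESeq2 called 2, and the replicate block called 1 in each direction. Against ALSC 3 were lower and 0 higher in ABSC (5 lower with the block): the atrial light chain gene Myl7 (-4.24, edgeR adjusted p = 0.00307), Gata6 (-2.74, edgeR adjusted p = 0.0123) and Gata4 (-2.66, edgeR adjusted p = 0.0314). In ABSC these stood at 0.119 ± 0.107, 0.469 ± 0.295 and 0.171 ± 0.110 CPM. Myl7 and Gata4 were thus near the floor there, which limits the size of their fold changes. Myl7 rose in ALSC against AFSC, from 0.134 ± 0.151 to 2.34 ± 0.605 CPM (4.11, edgeR adjusted p = 0.00570), the 1 gene of that list called there (5 higher and 0 lower with the block). Nkx2-5, the early heart factor that works with Tbx20, had at most 2 counts in a library. Of the extraembryonic mesoderm and amnion genes, 5 of 11 tested genes rose and 2 fell in ABSC against AFSC, and 6 were higher and 2 lower than in ALSC; 2 rose in ALSC against AFSC (4 rose and 1 fell with the block). Hand1, Msx1 (4.12), Msx2 (3.09) and Acta2 (2.34) were among the rises against AFSC. Bmp2 was lower in ABSC than in ALSC (-2.80, edgeR adjusted p = 0.000583). The summed level of its 17 genes was 247 to 276 CPM in ABSC, 28.4 to 39.0 in AFSC and 53.6 to 59.0 in ALSC, most of it Hand1 in ABSC; 5 of the 17 stayed under 1 CPM in every group. The part of such cells in the Tbx20 result was not tested.

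The other VEGF genes were read beside Kdr, with no test of their difference from it. Of the VEGF ligands and receptors 10 were tested, and the co-receptor Nrp1 fell in ABSC against AFSC (-1.72, edgeR adjusted p = 0.0426) while the co-receptor Nrp2, which overlaps Gm37121, fell in ALSC (21.3 ± 9.91 against 70.2 ± 20.3 CPM; -1.72, edgeR adjusted p = 0.0264). With the block 2 rose and 1 fell in each of these comparisons, and Nrp2 was higher in ABSC than in AFSC (edgeR adjusted p = 0.00562). Flt1, the decoy receptor, stood at 46.9 ± 5.49 CPM in AFSC, 30.5 ± 2.97 in ALSC and 31.6 ± 7.75 in ABSC and did not pass (edgeR adjusted p = 0.0738 in ABSC and 0.0564 in ALSC). The ligand Vegfa varied from library to library, at 38.2 ± 23.2 CPM in AFSC, and was not called (edgeR adjusted p = 0.945 in ABSC and 0.703 in ALSC; with the block it was higher in ALSC, edgeR adjusted p = 0.000511). Of 24 blood and endothelial genes 13 were tested; 0 rose and 3 fell in ABSC against AFSC, 1 rose and 1 fell in ALSC, and 4 were lower and 0 higher in ABSC than in ALSC (with the block, 1 rose and 3 fell in ALSC, and 6 were lower and 1 higher in ABSC than in ALSC). The stem cell antigen Cd34 fell in ABSC to 0.235 ± 0.0515 CPM (-2.17, edgeR adjusted p = 0.00527). The other falls there were Sox17 (-3.82, edgeR adjusted p = 0.00634) and Kit (-0.67, edgeR adjusted p = 0.0106). In ALSC the gene that rose was Kit, from 38.9 ± 4.29 to 78.8 ± 9.79 CPM (1.02, edgeR adjusted p = 0.00190). Sox17 (-4.76), Kit (-1.69) and Lmo2 (-1.56) were lower in ABSC than in ALSC. The TGF-beta co-receptor Eng, which overlaps Fpgs, fell in ALSC (-1.32, edgeR adjusted p = 0.0208). Cdh5, a defining gene of endothelium, had at most 6 counts in a library, and Etv2, the factor that drives endothelial fate, was at 2.42 ± 0.820 CPM in AFSC, 3.09 ± 0.0819 in ALSC and 2.00 ± 0.226 in ABSC.

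Relatives and partners of the 10 genes were read from lists as well. Outside Tbx20, Tbx6 and Tbx4, 3 of 14 T-box genes were tested, and edgeR called T in ALSC against AFSC (0 with the block). In ABSC against AFSC 0 were called, where 1 had an unadjusted p under 0.05 and DESeq2 called 1; in ABSC against ALSC 0 were called, at an unadjusted p and by DESeq2 as well. Tbx3 missed the filter, at 1.85 ± 1.39 CPM in ABSC and under 0.15 CPM on average in the other groups. The RNA of E-proteins, which bHLH factors such as Twist1 and Tcf15 bind, was abundant, with Tcf3 at 190 ± 14.4 CPM in AFSC. Tcf12, which overlaps Rpl15-ps2 and Gm38057, fell in ABSC (87.5 ± 7.90 against 120 ± 3.93 CPM, log2 fold change -0.46, edgeR adjusted p = 0.00775). Among the Id genes, whose proteins hold E-proteins away from DNA, RNA was higher in ABSC for Id1 (4.85, edgeR adjusted p = 0.000121), Id2 (2.20, edgeR adjusted p = 2.14e-05) and Id4 (1.68, edgeR adjusted p = 0.00709). Id2 fell in ALSC (-1.98, edgeR adjusted p = 0.000182). Id3 stood at 28.5 ± 4.66 CPM in AFSC, 37.4 ± 9.52 in ALSC and 42.1 ± 6.56 in ABSC and was not among the calls. Over the list of bHLH partners and inhibitors 4 of 9 rose and 1 fell in ABSC against AFSC, 2 rose and 1 fell in ALSC, and 4 were higher and 1 lower in ABSC than in ALSC. Of 28 other forkhead genes 20 were tested; 1 rose and 4 fell in ABSC, 0 rose and 1 fell in ALSC, and Foxa2 of the anterior streak had the largest fall of them in ABSC (-5.64). With the block 4 forkhead genes rose and 4 fell in ABSC, and 4 rose and 3 fell in ALSC. Of 15 genes of the mesenchymal transition, the setting of Twist1, 14 were tested; 1 rose and 2 fell in ABSC and 2 rose and 0 fell in ALSC (4 and 3, and 4 and 2, with the block). Zeb2 (-1.12) and Cdh11 (-1.40) fell in ABSC, while Fn1 rose from 194 ± 4.85 to 307 ± 17.4 CPM (0.66, edgeR adjusted p = 0.00120). In ALSC, where Twist1 fell, Zeb1 (1.26, edgeR adjusted p = 0.0176) and Fn1 (0.38, edgeR adjusted p = 0.0259) rose. Of these 14 genes 1 was higher and 4 were lower in ABSC than in ALSC.

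Markers of other cell types were checked beside these results. Of 11 fibroblast genes 6 were tested and 0 were called by edgeR or DESeq2 in any comparison; 2, 4 and 0 had an unadjusted p under 0.05 in ABSC against AFSC, ALSC against AFSC and ABSC against ALSC, and 2, 2 and 1 were called with the block. The summed level of all 11 was 34.9 to 38.0 CPM in AFSC, 31.3 to 47.4 in ALSC and 26.9 to 39.7 in ABSC. The defining fibroblast genes Dcn, Lum and Fap had at most 4 counts in a library. Of 10 neural ectoderm genes 2 were tested and 0 called by edgeR or DESeq2, with or without the block, and 0 had an unadjusted p under 0.05 in any comparison. Of 13 endoderm genes 9 were tested; 3 fell in ABSC against AFSC, 0 were called in ALSC by edgeR or DESeq2 (3 at an unadjusted p under 0.05, and 4 rose with the block), and 6 were lower in ABSC than in ALSC, with a sum of 14.1 to 15.3 CPM in ABSC against 33.0 to 40.1 in AFSC and 38.4 to 50.9 in ALSC. Of 13 trophoblast genes 7 were tested. In ABSC 2 rose and 1 fell, in ALSC 1 rose and 2 fell, and 3 were higher and 1 lower in ABSC than in ALSC. With the block these were 3 and 1, 1 and 2, and 3 and 2. The sum of all 13 overlapped between the groups, at 256 to 427 CPM in ABSC, 258 to 327 in AFSC and 209 to 298 in ALSC. Krt8 rose (0.58) and Krt7 fell (-1.57, edgeR adjusted p = 0.0119) in ABSC against AFSC. In ALSC, Tfap2c rose (2.30) while Krt8 (-0.63) and Krt18 (-0.44) fell. Against ALSC, Krt7 was lower in ABSC (-1.57), and Krt8 (1.21) and Krt18 (0.65) were higher. In the TSC-like ABSC, Cdx2 stood at 4.45 ± 3.13 CPM (SD, n = 3), against 0.126 ± 0.118 in AFSC and 0.0858 ± 0.0781 in ALSC. The rise was called against AFSC (5.04, edgeR adjusted p = 0.00839) and against ALSC (5.64, edgeR adjusted p = 0.00615). Eomes stood at 117 CPM in ABSC, close to its 122 CPM in AFSC and 127 CPM in ALSC. Elf5 had at most 7 counts in any of the 9 libraries, and the placental genes Tpbpa, Prl3d1 and Prl3b1 had 0 counts in all. The part of any such cells in the changes of Tbx20, Tbx4 and Twist1 was not tested.

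Genes were ranked by how closely their level followed each factor over the 9 libraries. Likeness was the Pearson correlation of log2 CPM with 11075 genes of at least 5 CPM in a group, so the top of the ranking is chosen from many, and the libraries share their cell types and numbers. Tbx20 was closest to Lad1 (r = 0.991), Rmc1 (0.991) and Daam1 (0.989), which stood at 34.5, 113 and 43.8 CPM in ABSC. Tbx4 was closest to Basp1 (0.985), Msn (0.984) and Gng3 (0.984), and Twist1 to Fam168a (0.987), Fbxo34 (0.985) and Bcl2l11 (0.981). Among the genes closest to Kdr were Cdt1 (0.953) and Sall4 (0.952), and among those closest to Tcf15 were Tmem102 (0.940) and Ilvbl (0.936). Tbx6 was closest to Saal1 (0.945), Gm14397 (0.937) and Pcnx4 (0.937), and Foxc1 to Timp3 (0.966), Ift43 (0.942) and Chchd1 (0.940). Several of these overlap another tested gene and may share its reads: Rmc1 (Npc1), Gng3 (Bscl2), Sall4 (Gm14261), Timp3 (Syn3), Chchd1 (6230400D17Rik), Gm14397 (Cdh22) and Pcnx4 (Gm4756). Among the 7 genes themselves, r over the 9 libraries was 0.88 for Tbx4 and Twist1, 0.77 for Tbx6 and Tcf15, and -0.63 for Tbx6 and Kdr.

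Neighbouring genes were read from the table, those whose lowest coordinate lay within 150 kb of the lowest coordinate of one of the 10 genes. On the minus strand, as for Tbx20, Meox1 and Kdr, that coordinate is the 3′ end and not the start site. Tbx20, Tbx4, Hand2 and Kdr had 0 tested neighbours there. Twist1 had 1, Hdac9, whose body holds known enhancers of Twist1; it fell in ABSC against AFSC (1.02 against 2.02 CPM; -0.99, edgeR adjusted p = 0.0218) and was not called in ALSC (-0.25, edgeR adjusted p = 0.554). Tbx6 had 20, of which 2 were called in any pair, Mapk3 (0.71 in ABSC against AFSC, edgeR adjusted p = 0.0155) and Ino80e (0.37 in ABSC against ALSC, edgeR adjusted p = 0.0113). Foxc1 and Foxf1 had 1 each, Gmds and Mthfsd, and Tcf15 had 4, with 0 called. Meox1 had 4, of which Etv4, a target of FGF signalling, fell in ALSC against AFSC (-0.64, edgeR adjusted p = 0.0180). None of the 10 genes overlapped a tested gene.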

How the data were processed

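The authors deposited 1 table of unnormalized counts, a row for each gene. HISAT2 2.0.5 and featureCounts 1.5.0-p3 are the tools, and mm9 is the build, per the submitters' processing notes; the gene coordinates in the table equal those of GENCODE M21 (GRCm38) for 98.33% of shared gene IDs and for the 10 genes here, and are read as GRCm38. Per the labels' protocols the library kit was NEBNext Ultra, which does not mark strand. The 346 rows without a gene (0.208% to 0.227% of counts) were left out. The tests used edgeR 4.0.16 (R 4.3.3): filterByExpr (minimum count 10, minimum total 15), TMM scaling, 1 fit of all 9 libraries with group means, 6 residual degrees of freedom and robust quasi-likelihood F tests, 2-sided. P-values were adjusted by Benjamini-Hochberg over all 16178 genes, and a gene is called at an adjusted p under 0.05. The SE is the absolute log2 fold change over the square root of F. The fitting code was tested on simulated data. Same-numbered libraries deviated together from their group means, with correlations of 0.197 to 0.554 in all 9 pairs of libraries, above the threshold of 0.1, so the number was taken to pair them, and a fit with it as a replicate block was run. Libraries of different numbers gave -0.426 to 0.273: those that set number 1 against 2 or 3 were all negative, while those of number 2 with number 3 gave 0.221 to 0.273, so the correlations separate number 1 and not number 2 from number 3. The labels do not say what the numbers mark. Within groups, counts of 2 libraries differed by 2.10 to 25.9 times the sampling noise (chi-square per degree of freedom), so all 9 count as libraries of their own. The other alternatives were RLE factors, library size only, DESeq2 1.42.0, other filters, only the 2 groups compared, and each library left out. The text names the 10 genes whatever their result, up to 4 called genes per list and comparison at 1 CPM or more, the 3 closest genes in likeness (2 of these are not reported here), and neighbours within 150 kb; T-box, VEGF and defining marker genes outside that rule (Pou5f1, Mesp1, Msgn1, Nkx2-5, Tbx3, Flt1, Vegfa, Cdh5, Etv2, Tcf3, Tcf12, Dcn, Lum, Fap, Cdx2, Eomes, Elf5, Tpbpa, Prl3d1, Prl3b1) were chosen after their values were seen. The 10 genes and the 14 lists were chosen with earlier results of these data known.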

Additional observations from a re-analysis of the deposited data

Results flagged for a closer look

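The differences from AFSC were unequal in ABSC and ALSC for 2 genes. Tbx20 was 3.32 higher on the log2 scale in ABSC than in ALSC (edgeR adjusted p = 2.73e-05), the direct comparison of these cell types, whose medium and passage cannot be told apart. All 3 ABSC libraries lay above and all 3 ALSC libraries below those of AFSC, although ALSC against AFSC did not pass (edgeR adjusted p = 0.0754). Tbx4 was 1.79 higher in ABSC than in ALSC by the same test (edgeR adjusted p = 0.0146), with all 6 libraries below those of AFSC. That call was lost without ALSC 2 (edgeR adjusted p = 0.0534) or ALSC 3 (edgeR adjusted p = 0.0521).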

How the results depend on the processing

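Of the 21 fold changes of the 7 genes tested, 3 calls were lost and 12 gained in single settings, all named beside the gene in the results except 4 of the gains. These 4 were Tbx4 in ABSC against AFSC without ALSC 1 (-0.995, edgeR adjusted p = 0.0396), Tbx20 in ALSC against AFSC without ABSC 1 (-0.86, edgeR adjusted p = 0.0485), and both of these comparisons without the 3 libraries numbered 1 (-1.19 and -0.95, edgeR adjusted p = 0.00599 and 0.0360). With the replicate block the genes called over the whole table rose from 1291 to 3132 in ABSC against AFSC, from 1139 to 3590 in ALSC against AFSC, from 1775 to 4605 in ABSC against ALSC and from 2395 to 5992 for any difference; of the 10 genes it called 4 in each comparison with AFSC and 4 for any difference (Kdr added), and changed no call among them in ABSC against ALSC. Without the 3 libraries numbered 1, a setting chosen after seeing the data, the counts were 4622, 4122, 5225 and 7121, and 5, 4, 3 and 5 of the 10 genes (28.5%, 25.4% and 32.2% of all genes in the 3 pairs). Among the genes so called, Foxc1 passed the filter through ABSC and Twist1 through AFSC, the groups where they were high. A fit of only the 2 groups compared called 1041 genes in ABSC against ALSC. With each library left out in turn, the ranges were 667 to 1723 (ABSC against AFSC), 345 to 1522 (ALSC against AFSC), 846 to 2337 (ABSC against ALSC) and 1395 to 3048 (any difference), the low ends coming without AFSC 3, AFSC 3, ABSC 2 and ABSC 2; counts fell by over 1.5 times also without AFSC 2 or 3 in both comparisons with AFSC and for any difference, without ABSC 2 or 3 in both comparisons of ABSC and for any difference, and without ALSC 2 or 3 in ALSC against AFSC. Of the 10 genes, 1 to 3 were called in ABSC against AFSC (1 without AFSC 3) and 1 to 2 in ABSC against ALSC (1 without ALSC 2 or ALSC 3).

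Directions turned only for differences that were not called. With each library left out, Tbx6 ranged from -0.41 to 0.25 in ABSC against AFSC, -0.25 to 0.32 in ALSC against AFSC and -0.55 to 0.25 in ABSC against ALSC. Tcf15 ranged from -0.29 to 0.26 in ABSC against AFSC and -0.080 to 0.46 in ALSC against AFSC, and Foxc1 from -0.23 to 0.70 in ALSC against AFSC. Without the libraries numbered 1, Tcf15 was at 0.071 in ABSC against AFSC and Tbx6 at -0.11 in ALSC against AFSC. The cause was not tested. Counts of 3 to 57 per library limit Tbx4, Twist1, Tbx6, Foxc1 and Kdr.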
